A study of Mus musculus with 7 samples.

Results

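Transcripts of 10 genes that distinguish atrial from ventricular heart muscle were counted in the mouse left ventricle at E12.5 (embryonic day 12.5). The 10 were taken by name: the atrial genes Nr2f1, Nr2f2, Stard10, Gpr22, Myl4, Myl7 and Dkk3, and the ventricular genes Myl2, Irx4 and Hey2. All 10 were present among the 23337 gene symbols of the count table and all 10 passed the filter on low counts, which left 14691 genes for testing. The ventricles were microdissected, and poly(A) RNA was sequenced in 7 libraries. Every embryo carried the Rosa26 allele Gt(ROSA)26Sortm1(cre/ERT2)Tyj, which expresses the recombinase CreERT2 from a locus active in most cell types and not in heart muscle alone. Every mother received tamoxifen, which activates CreERT2, at E11.5. The 5 control embryos were Tbx5+/+, and the 2 embryos labelled mutant were Tbx5flox/flox. The single comparison asked which chamber identity transcripts differ in the left ventricle after deletion of Tbx5, which encodes a T-box factor. Litter, sex and batch are not in the labels, so p-values measure only the spread between these samples.

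Atrial and ventricular muscle arise from a common myocardium and separate by mutual repression. NR2F1 and NR2F2 are orphan nuclear receptors of the atria, where NR2F2 maintains atrial identity. IRX4, a homeobox protein, and HEY2, a bHLH repressor downstream of Notch, act in the ventricle and hold down atrial genes there. The myosin light chains are the usual readouts of chamber identity. MYL7 and MYL4 are the regulatory and essential light chains of the atria, both also made in the embryonic ventricle. MYL2 is the regulatory light chain of the ventricle.

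The controls held 20385656 to 24440806 counts per library, and the libraries labelled mutant 20268208 and 22680280. Tbx5, on chromosome 5 at 119796514 to 119885220 (mm10), was at 64.2 to 98.3 CPM in the controls and at 93.8 and 114 CPM in the libraries labelled mutant, where CPM is the read count scaled to a common library total after TMM correction. Since a whole-gene count also covers exons that the deletion leaves in place, it is no check of the deletion, and the genotypes rest on the labels. Xist, made from the inactive X chromosome, was at 0.689 and 1.09 CPM in control replicates 1 and 3, and at 311 CPM or more elsewhere, including both libraries labelled mutant.

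The tissue label was matched by the level of the ventricular light chain. Divided by exon length, Myl2 was the most abundant of the 10 genes, at 4620 ± 617 CPM per kb (SD, n = 5) in the controls, and its control range did not overlap that of any other gene of the list. Myl7 followed at 1879 ± 505 CPM per kb and Myl4 at 568 ± 109 CPM per kb, so transcripts of both atrial light chains were abundant in the control left ventricle. The order depended on the length used: with the median coding transcript in place of the union of exons, Myl4 stood above Myl7, Stard10 (23.9 CPM per kb) above Irx4 (23.0) and Dkk3 (17.5), and Nr2f2 (15.3) above Gpr22 (11.8). The 7 other genes lay far lower, from Hey2 at 28.9 ± 2.51 CPM per kb to Nr2f1 at 1.73 ± 0.581 CPM per kb. Control ranges per kb overlapped between Hey2 and Irx4, Irx4 and Dkk3, Stard10 and Gpr22, and Nr2f2 and Nr2f1, so the order within these pairs was not resolved by the spread.

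In the libraries labelled mutant, 4 of the 7 atrial genes were lower, namely Nr2f1, Stard10, Gpr22 and Myl7, while Nr2f2, Dkk3 and Myl4 did not pass the test. None of the 3 ventricular genes passed it. The test was edgeR's quasi-likelihood test with Benjamini-Hochberg adjustment over all 14691 genes and a threshold of 0.05 on the adjusted p, which called 200 genes (1.36%), 132 lower (0.899%) and 68 higher (0.463%). The median log2 fold change was -1.12 over the 7 atrial genes and -0.12 over the 3 ventricular genes, beside -0.0080 over all genes tested. Both libraries labelled mutant lay below every control for the 4 called atrial genes and for Myl2, beside 10.4% of all genes tested, and no gene of the list had both above every control, beside 9.73% (20.2% in either direction). In tissue RNA, fewer cells of a type and less RNA per cell cannot be told apart.

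**Figure D1:**
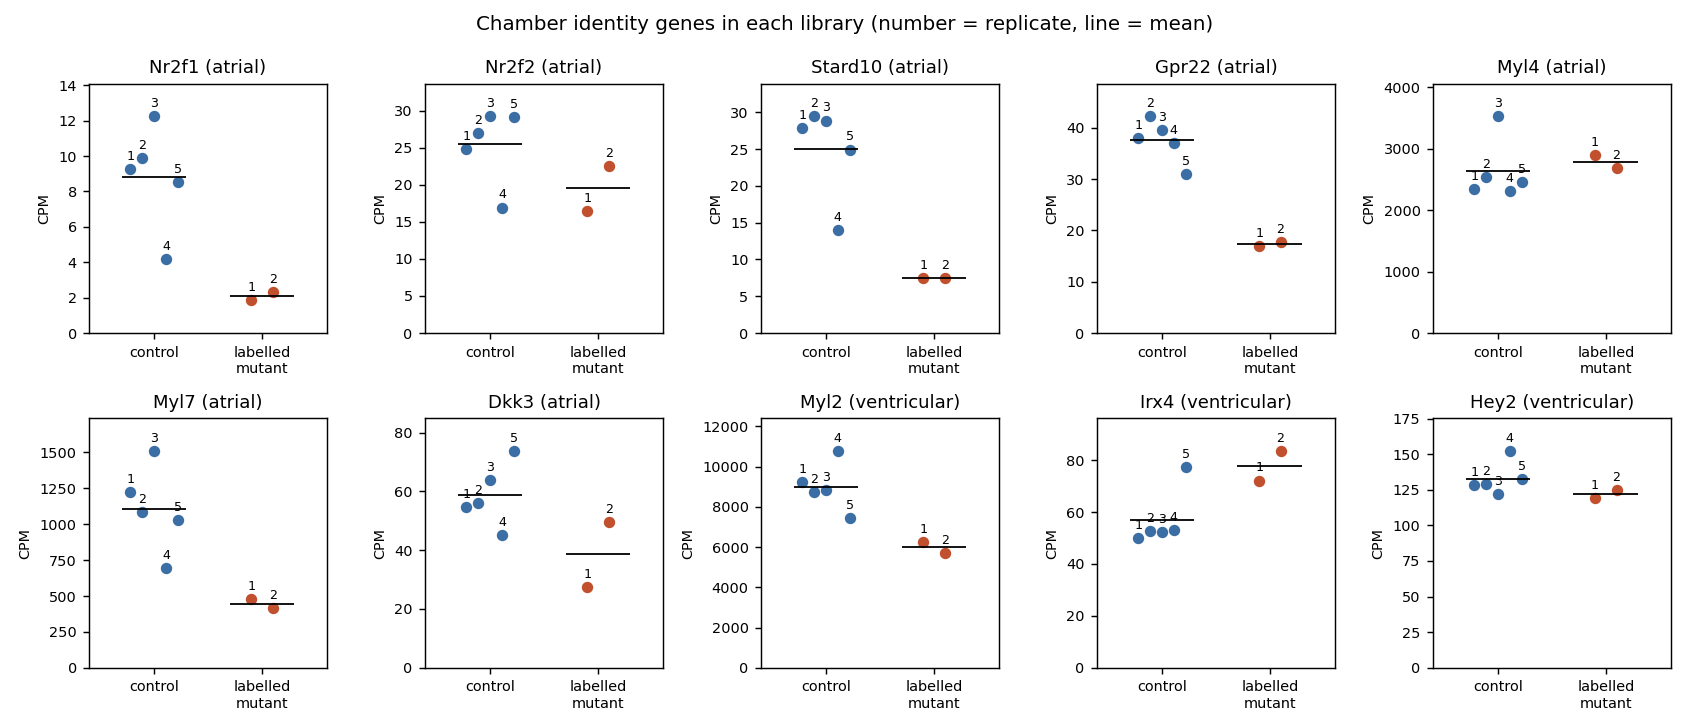
CPM of each chamber identity gene in every library, with 1 panel per gene, 5 controls in blue, 2 libraries labelled mutant in red, replicate numbers beside the points and a line at each group mean. Both red points lie below all blue points for Nr2f1, Stard10, Gpr22, Myl7 and Myl2, and control 4 is the lowest blue point for 6 of the 7 atrial genes.

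Among the atrial regulators, Nr2f1 fell and Nr2f2 did not pass the test. Nr2f1, on chromosome 13 at 78188971 to 78198873, was at 9.30, 9.92, 12.3, 4.16 and 8.54 CPM in control replicates 1 to 5 and at 1.88 and 2.32 CPM in the libraries labelled mutant. The groups did not overlap, and control replicate 4 lay closest to the libraries labelled mutant. Nr2f1 had a log2 fold change of -2.07 (SE 0.38), from a mean of 8.83 ± 2.96 CPM (SD, n = 5) to 2.1 ± 0.308 CPM (SD, n = 2), with an adjusted p of 0.0301 by edgeR's quasi-likelihood test. Its counts were low, 38 and 53 in the libraries labelled mutant.

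Nr2f2, on chromosome 7 at 70351946 to 70366746, was at 24.9, 26.9, 29.2, 16.9 and 29.2 CPM in the controls and at 16.4 and 22.5 CPM in the libraries labelled mutant. Mutant replicate 2 lay inside the control range and mutant replicate 1 just under control replicate 4. The log2 fold change was -0.38 (SE 0.20), with an edgeR adjusted p of 0.364. NR2F2 is also a transcription factor of venous endothelium, and of 5 venous endothelial genes (Ephb4, Nrp2, Aplnr, Flt4 and Emcn) none was called by edgeR or limma-voom, which called 0.81% of all genes. Of these 5, 1 had an unadjusted p under 0.05, beside 17.6% of all genes tested, and 1 was called by DESeq2. Their summed level was 276 to 327 CPM in the controls, and 251 and 277 CPM in the libraries labelled mutant. Whether the log2 fold changes of Nr2f1 and Nr2f2 differ was not tested.

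Stard10 and Gpr22, which are not muscle structural genes, both fell. Stard10 encodes a lipid transfer protein with a START domain and lies on chromosome 7 at 101317086 to 101346626. It was at 27.9, 29.5, 28.9, 14.0 and 24.9 CPM in control replicates 1 to 5 and at 7.48 CPM in each library labelled mutant. Control replicate 4 stood below the other controls, and both libraries labelled mutant stood below it. For Stard10 the log2 fold change was -1.74 (SE 0.27) and the edgeR adjusted p 0.0173.

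Gpr22 encodes an orphan G protein-coupled receptor and lies on chromosome 12 at 31706867 to 31713883. Its values were 38.0, 42.3, 39.6, 37.1 and 31.1 CPM in control replicates 1 to 5, and 16.9 and 17.7 CPM in the libraries labelled mutant. Here control replicate 4 lay among the other controls, and the gap between the groups was wider than the whole control range. Its log2 fold change was -1.12 (SE 0.13) and its edgeR adjusted p 0.00448, the lowest of the 10 genes. Gpr22 lies on the opposite strand within Cog5, a gene of the Golgi transport complex, and the library kit does not mark strand. Cog5 itself had a log2 fold change of -0.17 (SE 0.13) with an edgeR adjusted p of 0.550.

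Of the atrial light chains, Myl7 was called lower and Myl4 was not called. Whether their log2 fold changes differ was not tested. Myl7, on chromosome 11 at 5896637 to 5898782, was at 1226, 1087, 1511, 694 and 1026 CPM in control replicates 1 to 5 and at 478 and 418 CPM in the libraries labelled mutant. Control replicate 4 was again the lowest control, and the groups did not overlap. Myl7 thus stood at a log2 fold change of -1.31 with an SE of 0.25, and its edgeR adjusted p was 0.0417.

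Myl4, on chromosome 11 at 104546017 to 104587215, was at 2341, 2530, 3528, 2314 and 2456 CPM in the controls and at 2894 and 2678 CPM in the libraries labelled mutant. Both libraries labelled mutant lay within the control range, between control replicates 2 and 3. Myl4 had a log2 fold change of 0.08 (SE 0.16), with an edgeR adjusted p of 0.829. Dkk3, which encodes a secreted protein of the Dickkopf family and lies on chromosome 7 at 112116019 to 112159482, was at 54.6, 56.0, 63.7, 45.0 and 73.7 CPM in the controls and at 27.5 and 49.6 CPM in the libraries labelled mutant. The 2 libraries labelled mutant differed from each other for Dkk3, the second lying inside the control range, and the log2 fold change of -0.60 (SE 0.23) did not pass (edgeR adjusted p of 0.224).

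Promoter sequence was examined for the chamber genes. RefSeq (GRCm38.p6) gave 11 start sites for 9 of the 10 genes, with none for Dkk3, and the 250 bases before each start were searched on both strands. The strings searched were AGGTGTG and GGTGTGA, overlapping pieces of the T-box consensus, AGGTCA, the core site of nuclear receptors such as NR2F1, and the CArG box, the element bound by serum response factor, which was added after the sequences were seen. GGTGTGA occurred in 1 of the 11 windows (Stard10), beside 3.33% of 32851 promoters, and AGGTGTG in 0 of the 11, beside 5.1%. AGGTCA occurred in 1 window (Myl2), beside 14.0%, and a CArG box in 1 (Myl7), beside 1.47%. A match is a run of letters in this window and no measured binding site. The windows of Stard10, Myl7 and Gpr22 are shown 5′ to 3′, as 3 of the 4 genes called lower, with matches in capitals; Gpr22 ends where the GENCODE gene model begins, and holds none of the strings.
Stard10, chr7:101316836-101317085, plus strand: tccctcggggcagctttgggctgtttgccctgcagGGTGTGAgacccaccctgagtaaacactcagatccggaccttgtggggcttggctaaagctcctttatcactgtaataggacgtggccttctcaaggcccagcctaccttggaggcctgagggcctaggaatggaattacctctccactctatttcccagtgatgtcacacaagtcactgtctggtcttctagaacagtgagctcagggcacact
Myl7, chr11:5898783-5899032, minus strand: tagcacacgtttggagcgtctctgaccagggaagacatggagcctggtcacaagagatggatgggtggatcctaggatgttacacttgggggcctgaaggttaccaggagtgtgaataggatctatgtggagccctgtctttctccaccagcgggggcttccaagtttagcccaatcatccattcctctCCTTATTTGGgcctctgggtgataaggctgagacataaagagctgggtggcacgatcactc
Gpr22, chr12:31713948-31714133, minus strand: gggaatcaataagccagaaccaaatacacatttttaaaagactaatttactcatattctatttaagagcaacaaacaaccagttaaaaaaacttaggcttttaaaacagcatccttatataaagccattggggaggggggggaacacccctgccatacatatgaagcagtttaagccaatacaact
In Stard10 the match covered bases 36 to 42 of the window, and in Myl7 bases 190 to 199.

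The ventricular list holds the light chain Myl2 and the regulators Irx4 and Hey2. Myl2, on chromosome 5 at 122092724 to 122113473, was at 9255, 8723, 8858, 10780 and 7430 CPM in control replicates 1 to 5 and at 6261 and 5724 CPM in the libraries labelled mutant. Both libraries labelled mutant lay below every control, with control replicate 5 nearest and control replicate 4 highest. The log2 fold change was -0.59 (SE 0.13), and the edgeR adjusted p of 0.0586 missed the threshold.

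Irx4, on chromosome 13 at 73259589 to 73269622, was at 50.2, 52.7, 52.3, 53.0 and 77.3 CPM in control replicates 1 to 5 and at 72.2 and 83.6 CPM in the libraries labelled mutant. Control replicate 5 stood apart from the other controls and between the 2 libraries labelled mutant. For Irx4 the log2 fold change was 0.45 (SE 0.16), with an edgeR adjusted p of 0.181, and without control replicate 5 it was 0.59 with an adjusted p of 0.0115. Hey2, on chromosome 10 at 30832359 to 30842783, was at 129, 129, 122, 152 and 133 CPM in the controls and at 119 and 125 CPM in the libraries labelled mutant, with overlapping groups, a log2 fold change of -0.12 (SE 0.10) and an edgeR adjusted p of 0.542. Of the 3 ventricular genes, 1 lower and 1 higher had an unadjusted p under 0.05, beside 9.52% and 8.09% of all genes tested. DESeq2, which called 5.24% of genes, called 1, Myl2, and limma-voom called 0. Irx4 and Hey2 were called lower in none of the 18 alternative fits.

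The authors' deposited table of significant genes, which lists 668 genes (2.86% of the symbols in the count table), held 5 of the 10. In the authors' deposited table these were Nr2f1, Stard10, Gpr22, Myl7 and also Myl2, the last with a log2 fold change of -0.59 and a false discovery rate of 0.0420.

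The calls rested on few libraries. Gpr22 was called in 17 of the 18 alternative fits, Stard10 in 13, Nr2f1 in 11 and Myl7 in 10, and the sign of the log2 fold change was kept in all 18 for each of the 10 genes. Without mutant replicate 2 none of the 10 was called, and the edgeR adjusted p was 0.0617 for Gpr22, 0.223 for Stard10, 0.245 for Nr2f1 and 0.386 for Myl7. Without mutant replicate 1 only Gpr22 was called. Nr2f1 and Myl7 lost their calls without control replicate 1 (edgeR adjusted p of 0.0691 and 0.0774) or control replicate 2 (0.0685 and 0.0754), and Myl7 also without control replicate 5 (0.0592). With Xist as a covariate, which stands for sex, only Gpr22 was called, at an edgeR adjusted p of 0.0142.

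**Figure D2:**
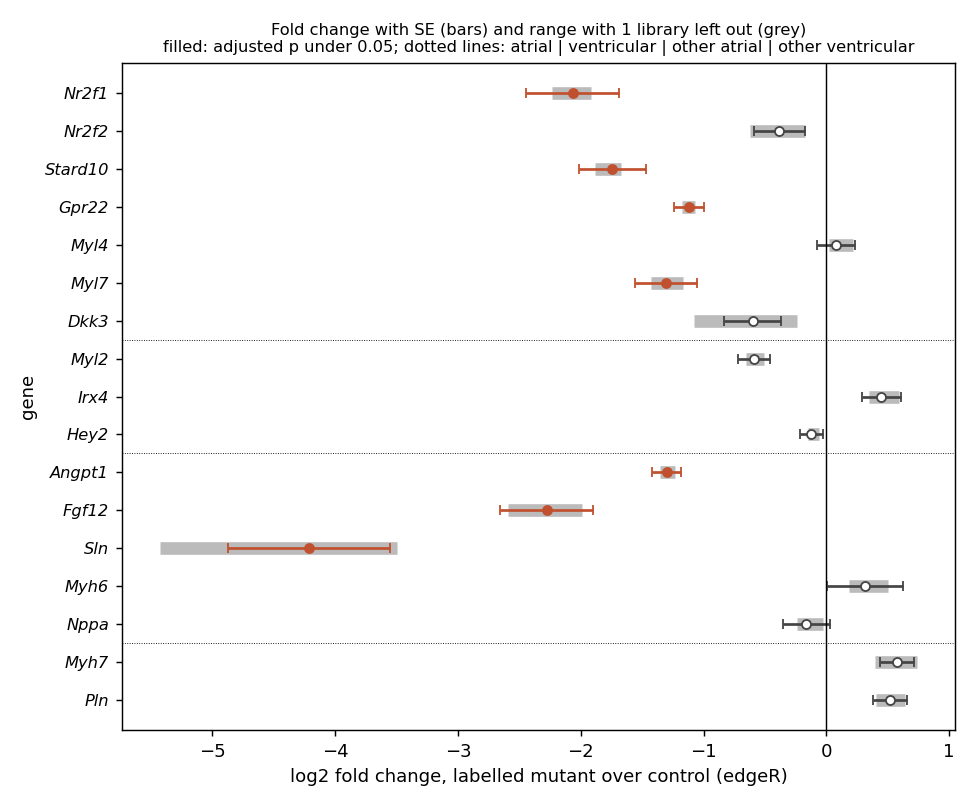
Log2 fold change of labelled mutant over control for the 10 chamber identity genes and for other atrial and ventricular genes, with SE as bars, the range over fits with 1 library left out in grey, and filled points for an adjusted p under 0.05. Nr2f1, Stard10, Gpr22 and Myl7 are filled and lie between -2.07 and -1.12, while Myl4 lies at 0.08.

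Other genes of atrial and ventricular muscle were read from separate lists. Of 13 other atrial genes, 3 were called lower and none higher, beside 0.899% and 0.463% of all genes tested. The median log2 fold change of the 13 was -0.63, beside -0.0080 over all genes tested. Angpt1, which encodes the secreted ligand of Tie2, stood at -1.30 (SE 0.12) on the log2 fold change scale. For Fgf12, an intracellular modulator of sodium channels, it was -2.28 (SE 0.38), and for Sln, which encodes the calcium pump inhibitor sarcolipin, -4.21 (SE 0.66). Counts in the libraries labelled mutant were low for both, 12 and 9 for Fgf12 and 17 and 5 for Sln. Adjusted p for these 3 lay between 0.00208 and 0.0227 by edgeR's quasi-likelihood test. The authors' deposited table, which lists 2.86% of the symbols, held these 3 and also Kcnj5 and Kcna5, at log2 fold changes of -0.96 and -0.80. The most abundant of the list that were not called, Myh6, the alpha myosin heavy chain, and Nppa, the atrial natriuretic peptide, stood at 0.32 (SE 0.31) and -0.16 (SE 0.19) on that scale. Without mutant replicate 1 the number called was 2 (Angpt1 and Fgf12), without mutant replicate 2 it was 1 (Angpt1), and without control replicate 4 it was 5.

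Of 12 other ventricular genes none was called by edgeR, with 2 lower and 3 higher at an unadjusted p under 0.05 (9.52% and 8.09% of all genes), while DESeq2 called 3 higher and limma-voom 0. The median log2 fold change of these 12 was 0.07. The most abundant, Myh7, the beta myosin heavy chain of the embryonic ventricle, was at 7928, 8625, 7715, 10244 and 10025 CPM in the controls and at 11646 and 14860 CPM in the libraries labelled mutant. Pln, which encodes the calcium pump inhibitor phospholamban, was at 949 to 1379 CPM in the controls and at 1515 and 1793 CPM in mutant replicates 1 and 2. Both genes were above every control in both libraries labelled mutant, at 0.57 and 0.52 on the log2 fold change scale (SE 0.14 for each), with edgeR adjusted p of 0.0711 and 0.0974. Thus Myl2 on one side and Myh7 and Pln on the other had opposite signs, none of the 3 past the threshold by edgeR or limma-voom. DESeq2 called all 3. The authors' deposited table held Myl2 and Pln, the latter at a false discovery rate of 0.0460, but not Myh7.

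Markers of the tissue next to the ventricle were read beside the atrial genes. Log2 fold changes were negative for all 5 genes of the atrioventricular canal (Tbx2, Tbx3, Bmp2, Msx2 and Rspo3), and their median was -1.38. Rspo3 was the 1 gene of the 5 called lower by edgeR, beside 0.899% of all genes tested. DESeq2, which called 5.24% of genes in either direction, called 4 lower, and limma-voom, which called 0.81%, called 1. The authors' deposited table, which lists 2.86% of the symbols, held Tbx2, Tbx3, Bmp2 and Rspo3 but not Msx2. For 4 of the 5 both libraries labelled mutant lay below every control, beside 10.4% of all genes tested. The summed level of the 5 was 53.7, 56.2, 55.0, 27.2 and 44.6 CPM in control replicates 1 to 5, against 18.0 and 18.2 CPM in mutant replicates 1 and 2.

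Genes of the sinus venosus and sinus node were read in the same way. Of 4, Isl1 was below the filter on low counts, at 0.0437 to 0.908 CPM over all libraries. The 3 tested (Shox2, Hcn4 and Tbx18) had negative log2 fold changes, all 3 with an unadjusted p under 0.05 (9.52% of all genes were lower at that p). None was called by edgeR or limma-voom, and 2 were called by DESeq2. The authors' deposited table, which lists 2.86% of the symbols, held all 3. Their false discovery rates there were 4.24e-05 (Shox2), 0.0193 (Hcn4) and 0.00414 (Tbx18). Shox2, a homeobox factor of the sinus node, was at 4.86, 8.78, 12.6, 0.346 and 4.76 CPM in control replicates 1 to 5 and at 0.149 and 0.262 CPM in the libraries labelled mutant. The summed level of the 4, mostly Tbx18, which is also an epicardial gene, was 87.4 to 103 CPM in the controls and 54.3 and 57.8 CPM in the libraries labelled mutant. The part of atrial, atrioventricular or sinus tissue in the atrial results was not tested.

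Control replicate 4 was singled out after its values were seen. The share of all genes for which it was the lowest control was not computed. Among the lists, control replicate 4 gave the lowest control value for 6 of the 7 atrial genes and for 10 of 13 other atrial genes. It did so for all 5 genes of the atrioventricular canal and for none of the 3 ventricular genes. Against the mean of the 4 other controls, it stood at -1.27 (log2) for Nr2f1, -0.99 for Stard10, -0.80 for Myl7, -0.70 for Nr2f2, -0.46 for Dkk3 and -0.23 for Myl4. For Gpr22 it stood at -0.03. Among the called genes of the other atrial list, it stood at -0.15 for Angpt1, -0.93 for Fgf12 and -1.69 for Sln. From the lowest to the highest control, Nr2f1, Stard10 and Myl7 spanned 2.95, 2.1 and 2.18 times. Nr2f2, Dkk3, Myl4 and Gpr22 spanned 1.73, 1.64, 1.52 and 1.36 times. Whether these spreads differ was not tested.

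Set against control replicate 4 alone, the libraries labelled mutant had a mean lower by 0.98 (log2) for Nr2f1, 0.90 for Stard10, 0.63 for Myl7 and 1.10 for Gpr22. For Angpt1, Fgf12 and Sln the same difference was -1.18, -1.49 and -2.71. For Shox2 it was -0.75 and for Tbx3 -0.88, while Hcn4, a pacemaker channel, was at 0.03, Nr2f2 at 0.20 and Myl4 at 0.27. Without control replicate 4 the same 4 atrial genes were called, at edgeR adjusted p of 0.00072 to 0.00461.

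**Figure D3:**
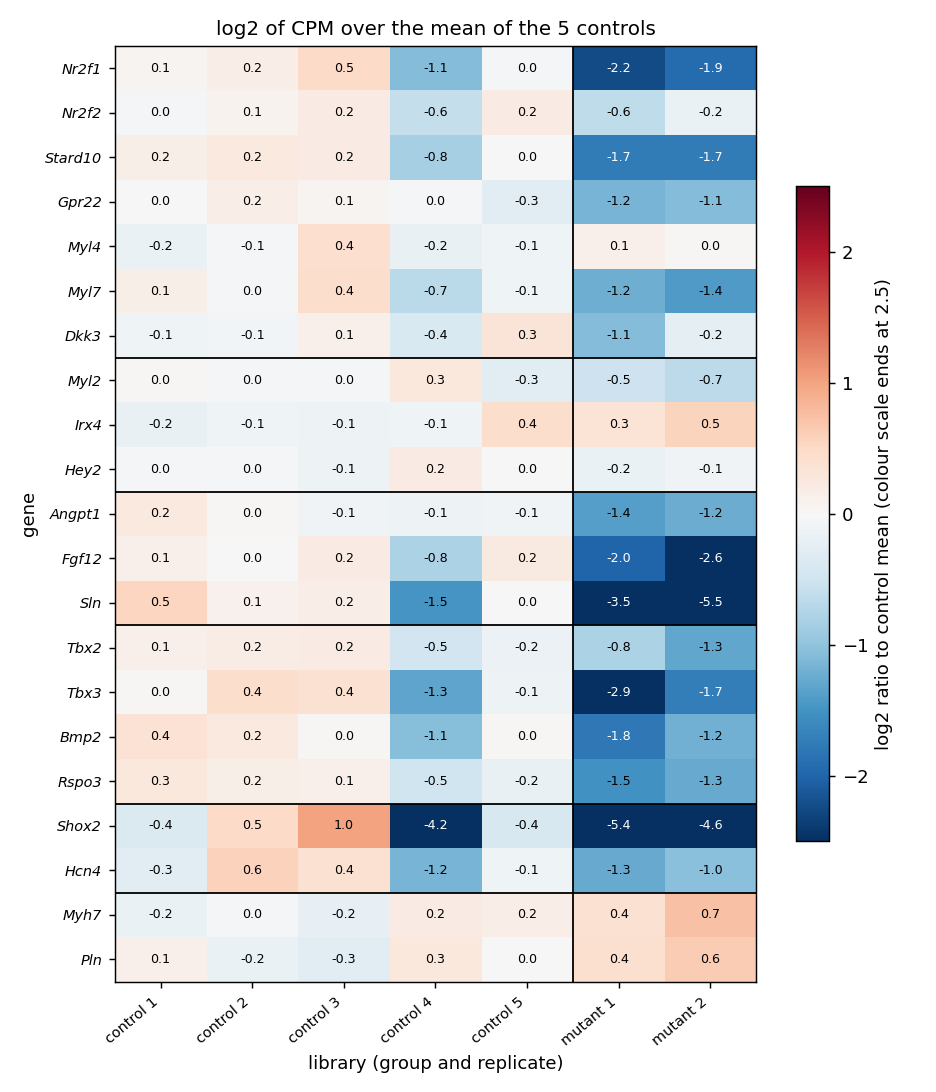
Log2 of CPM over the mean of the 5 controls, with genes as rows, the 7 libraries as columns, blue for lower and red for higher. From the top, blocks hold atrial identity genes, ventricular identity genes, called genes of the other atrial list, atrioventricular canal genes, sinus node genes, and Myh7 with Pln. Control 4 is blue beside the libraries labelled mutant for Nr2f1, Stard10, Myl7, Fgf12, Sln, Tbx3 and Shox2, and near 0 for Gpr22 and Angpt1.

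Ratios of genes within a library, which need no scaling between libraries, gave a further reading. The ratio of Myl7 to Myl2 counts was 0.132, 0.125, 0.171, 0.0644 and 0.138 in control replicates 1 to 5, compared with 0.0763 and 0.0730 in the libraries labelled mutant. Control replicate 4 was below both libraries labelled mutant, and the mean log2 ratio differed by -0.69 (exact two-sided permutation test over 21 splits, p = 0.238).

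The ratio of Stard10 to Myl7 was lower in both libraries labelled mutant than in every control, by 0.43 on the log2 scale (exact permutation p = 0.0952). The ratio of Gpr22 to Myl7 overlapped between the groups, with a difference of 0.15 (exact permutation p = 0.667) and its highest value in control replicate 4. The ratio of Nr2f2 to Myl7 was 0.0193 to 0.0284 in the controls, compared with 0.0344 and 0.0539 in the libraries labelled mutant, a difference of 0.89 on the log2 scale. Its exact permutation p was 0.0476, the smallest the design allows, and 0.190 after Benjamini-Hochberg adjustment over the 4 ratios, so none passed.

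**Figure D4:**
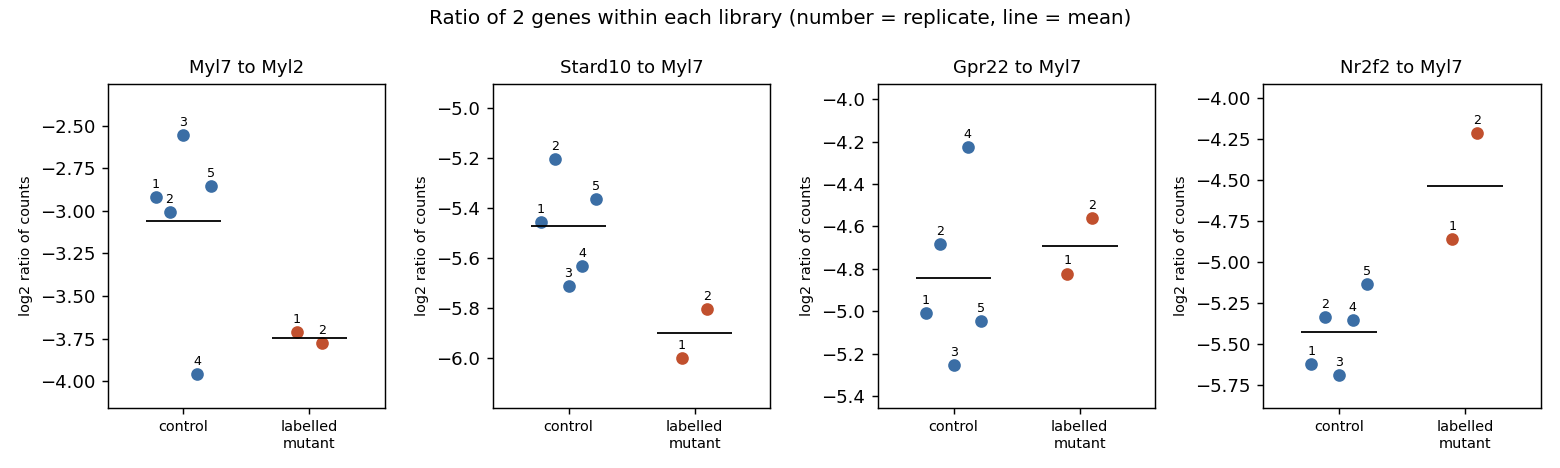
Log2 ratio of the counts of a gene pair within each library, with 1 panel per pair, controls in blue, libraries labelled mutant in red, replicate numbers beside the points and a line at each group mean. For Nr2f2 to Myl7 both red points lie above the controls, for Stard10 to Myl7 both lie below them, and control 4 is the lowest point for Myl7 to Myl2.

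Markers of other cells in the ventricle were read beside these genes. All 9 genes of cushion mesenchyme and fibroblasts had both libraries labelled mutant below every control, beside 10.4% of all genes tested. Of these 9, 6 were called lower by edgeR, beside 0.899% of all genes tested. The summed level of the 9 was 2506 to 4320 CPM in the controls and 1512 and 1521 CPM in the libraries labelled mutant. Control replicate 4 had the lowest control value for 2 of these 9, for 2 of 5 macrophage and 0 of 7 epicardial genes, and also for 5 of 7 endocardial and endothelial and 4 of 6 erythroid genes, so its low values were not limited to atrial and canal genes. Of the 5 macrophage genes 3 were called lower by edgeR (C1qa, C1qc and Lyz2), beside 0.899% of all genes tested. The sum of the 5 was 142 to 197 CPM in the controls and 122 and 87.2 CPM in the libraries labelled mutant. All 7 epicardial genes had negative log2 fold changes, with 1, Krt19, called lower by edgeR, beside the same 0.899%. Of 7 endocardial and endothelial genes none was called by edgeR, DESeq2 or limma-voom, 0 had an unadjusted p under 0.05 (17.6% of all genes), and the median was -0.03. Of 7 cardiomyocyte genes none was called by edgeR, 3 higher had an unadjusted p under 0.05 (8.09% of all genes), DESeq2 called 2 higher and limma-voom 0, with a summed level of 25119 to 28457 CPM in the controls and 31756 and 35384 CPM in the libraries labelled mutant. That sum includes Myh7, also in the ventricular list, which had means of 8908 CPM in the controls and 13253 CPM in the libraries labelled mutant. Of the 7 log2 fold changes, 5 were positive, among them Ttn at 0.81 (SE 0.29) and Tnnt2 at 0.40 (SE 0.10). Tnnt2 and Myh7 had both libraries labelled mutant above every control, beside 9.73% of all genes tested. The 2 negative ones were Actc1, cardiac actin, at -0.04 (SE 0.08), and Tnni3 at -0.0015 (SE 0.11). Whether these cell markers bear on the chamber genes was not tested.

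Transcripts of the opposite strand also overlapped the nuclear receptor genes and 2 light chains. The noncoding genes A830082K12Rik and B130024G19Rik run on the opposite strand across the starts of Nr2f1 and Nr2f2, and reads of such partners cannot be told apart without strand. Their log2 fold changes were -1.15 (SE 0.38) and -1.41 (SE 0.34), with edgeR adjusted p of 0.156 and 0.0743. Cdc27 overlaps the start of Myl4 and stood at 0.05 (SE 0.10) on the log2 fold change scale, and Ccdc63 overlaps the end of Myl2 and stood at -0.47 (SE 0.19), with edgeR adjusted p of 0.844 and 0.242.

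The genes with the most similar profile over the 7 libraries were sought for each called gene, by the root-mean-square distance between log2(CPM + 1) values centred on each gene's mean, among 11191 other genes of at least 5 CPM. For Nr2f1 these were Shisa2, Unc5c, a netrin receptor, and Rgs6, a regulator of G protein signalling, at distances of 0.123, 0.151 and 0.178. For Stard10 they were Unc5c, Gm12824 and Shisa2 at 0.141, 0.160 and 0.178, and for Myl7 Gm12824, the kinesin gene Kif1a and Ifltd1 at 0.150, 0.157 and 0.169. For Gpr22 they were Gsg1l, Nppb, the B-type natriuretic peptide, and the ectoenzyme gene Enpp1 at 0.0955, 0.0956 and 0.101. The neighbours of Nr2f1 and Stard10 shared 2 genes, those of Stard10 and Myl7 shared Gm12824, and those of Gpr22 shared none with any of the others. Profiles were not scaled to a common spread, so genes with unlike fold changes lie apart by this distance whatever the shape of their profiles.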

How the data were processed

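Groups and replicate numbers came from the sample titles. The deposited table of the authors holds raw read counts per gene symbol for 7 libraries. Per the submitters' processing notes the build was mm10, and TopHat2 2.1.1, limma 3.30.13, edgeR 3.16.5, featureCounts and R 3.3.2 were used, in roles not stated. For the annotation and strand setting, the sources used here give nothing. A second deposited table gives the authors' log2 fold change (the base was read from a median difference of 0.0054 from the values computed here), p-value and false discovery rate for significant genes.

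Counts were filtered with filterByExpr (minimum count 10, minimum total 15), scaled by TMM and tested with edgeR 4.0.16 glmQLFit and glmQLFTest (robust, R 4.3.3), with genotype as the only term. SE is the size of the log2 fold change over the square root of F. The fit was tested on simulated data. Levels per kb used the union of GENCODE M21 exons, and positions are RefSeq GRCm38.p6. Alternatives used DESeq2 1.42.0, limma-voom 3.58.1, other scalings and filters, and each library left out. By rule, the genes named were all 10 members, Tbx5 and 3 nearest profiles per called member. The other atrial and other ventricular lists each gave up to 6 called and the 2 most abundant uncalled genes. Single cell markers, overlapping genes, Kcnj5, Kcna5, Hey1, Hand1, Cited1 and the other Iroquois genes were named outside this rule. The members and lists were chosen with earlier results of these data known, and 2 genes of the further lists are not reported here and enter no list count. Figures used matplotlib 3.10.9 (Python 3.11.15).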

Additional observations from a re-analysis of the deposited data

Results flagged for a closer look

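In 2 of 32 sets of 5 control values checked, a control lay far from the other 4 by Dixon's test, which chance gives in about 1 of 20 sets. For Myl4 it was control replicate 3, at 3528 CPM, with a gap of 0.822 of the control range. For Irx4 it was control replicate 5, at 77.3 CPM, with a gap of 0.896 of the control range.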

How the results depend on the processing

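All 10 chamber identity genes kept the sign of their log2 fold change in each of the 18 alternative fits, and their calls did not. The number of genes called, 200 in all, was 783 with DESeq2, 119 with limma-voom, 60 with Xist as a covariate, 52 with control replicate 5 and mutant replicate 2 left out together, and 12 to 275 with 1 library left out. The number of atrial identity genes called, 4, was 2 with limma-voom, 1 with the Xist covariate, 1 with those 2 libraries left out together, and 0 to 4 with 1 library left out. The number of ventricular identity genes called, 0, was 1 with DESeq2, 1 with no filter on low counts, and 0 to 2 with 1 library left out. Of the other atrial genes, 3 were called, against 5 with DESeq2, 1 with limma-voom, 1 with the Xist covariate, 1 with those 2 libraries left out together, and 1 to 5 with 1 library left out. Of the other ventricular genes, 0 were called, against 3 with DESeq2 and 1 with no filter. The causes were not tested. Fits that leave a single library labelled mutant assume that it varies as the controls do. The 4 ratios can reach no p under 0.05 with a library left out, so those fits say nothing on their stability.

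Control and mutant replicates 1 and 2 share a number, and their deviations from the group means correlated at 0.111 and 0.00167 across 14691 genes. With only 2 libraries labelled mutant, the deviations of 1 are the reverse of those of the other. These values therefore cannot tell whether samples of the same number shared a litter or batch. With the replicate block, which leaves 1 residual degree of freedom, 811 genes were called, with 4 atrial and 2 ventricular identity genes, 7 other atrial and 4 other ventricular genes.

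The log2 ratio of Myl7 to Myl4 per kb in the controls, 1.73 with the union of exons, was -0.67 with the median coding transcript length, a choice made after seeing the data, which follows from the longer exon union of Myl4. Depth limits the sinus genes: Shox2 had 3 and 6 counts in the libraries labelled mutant, and Isl1 2 and 1. It also limits Fgf12, with 12 and 9 counts there, and Sln, with 17 and 5.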

Other observations

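Other Iroquois genes were read beside Irx4, and whether they differ from it was not tested. Irx1 was at 7.13 to 17.2 CPM in the controls and at 6.89 and 6.47 CPM in the libraries labelled mutant, a log2 fold change of -0.75 (SE 0.28). That of Irx2 was -0.83 (SE 0.37). Irx3, Irx5 and Irx6 had log2 fold changes of -0.15 (SE 0.30), 0.10 (SE 0.36) and 0.26 (SE 0.34). None of these 5 was called, with adjusted p of 0.212 to 0.915 by edgeR's quasi-likelihood test. Control replicate 5, the highest control for Irx4, was also the highest for Irx1, Irx2, Irx3 and Irx5. It was at 18.1 CPM for Irx3 and 17.7 CPM for Irx5, where the next highest controls were at 9.45 and 7.97 CPM.

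Hey1, the atrial counterpart of Hey2, was at 10.4 to 18.3 CPM in the controls and at 9.71 and 9.80 CPM in the libraries labelled mutant, below every control, a log2 fold change of -0.63 (SE 0.20), and its edgeR adjusted p was 0.141. Hand1, a bHLH factor of the left ventricle, had a log2 fold change of 0.06 (SE 0.18). Cited1, a transcriptional coregulator of the list of ventricular genes, was at 204 to 345 CPM in the controls and at 169 and 172 CPM in the libraries labelled mutant, a log2 fold change of -0.53 (SE 0.18), and its edgeR adjusted p was 0.181.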
